A study of Homo sapiens with 6 samples.

Results

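Mitotic nuclei were studied in human teratomas by single-nucleus RNA sequencing. A nucleus was counted as mitotic when it held at least 1 UMI (unique molecular identifier, 1 captured RNA molecule) for at least 3 of 6 genes, CENPE, ASPM, MKI67, TOP2A, CENPF and KIF14. By that rule 7527 of 54030 human nuclei were mitotic, and the other 46503 served as the comparison within each library. A human nucleus was a barcode with at least 500 human UMIs, at least 300 human genes and at least 90% of its UMIs on human genes. Because detection of these 6 genes chose the nuclei, the levels of cell cycle genes in them are set against the other nuclei as descriptions without a test. The 6 rule genes stayed among the genes fitted between genotypes, but no test result is read from them.

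The teratomas grew from the H1 human embryonic stem cell line after injection, with matrigel, into the flank of NSG immunodeficient mice. The lines differed at LNCPRESS1, a long noncoding RNA of pluripotent cells. The groups were KO (LNCPRESS1 knockout), DATG (written ΔATG in the study design) and WT (wild type), with 2 libraries each, and the labels give no other treatment. The frozen tumours were taken apart to nuclei in an automated tissue dissociator and profiled with the 10x 3′ v3.1 chemistry. No label tells if the 2 libraries of each genotype came from separate tumours or separate clones, so a p-value here measures only the spread between these libraries, which may be technical. Host age and the time of growth are not in the labels either.

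A dividing cell copies its DNA in S phase, condenses and captures its chromosomes in G2 and mitosis, and splits in cytokinesis. Transcription follows that order: E2F factors drive replication genes at the start of S phase, and the DREAM and MMB-FOXM1 complexes hold back and then raise the genes of G2 and mitosis through a short promoter element called the CHR. Among the genes of the rule, CENPE is a kinetochore motor, ASPM a spindle pole protein, TOP2A the topoisomerase that untangles chromosomes, CENPF a kinetochore and nuclear matrix protein, KIF14 a kinesin of cytokinesis, and MKI67 (the Ki-67 antigen) a coat of mitotic chromosomes. Teratomas mix growing progenitors with differentiated tissue such as neurons, which have left the cycle.

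The promoters of genes that stood high in mitotic nuclei are shown first, because the 2 waves of cell cycle transcription differ in their motifs. The sequences are the 100 bases before the first listed transcription start in RefSeq (GRCh38.p14), read 5′ to 3′ on the strand of the gene. Capitals mark the CHR letters TTTGAA or TTCGAA, the CCAAT box and the E2F letters TTTCCCGC or TTTGGCGC, each searched on both strands, so that a box on the other strand reads ATTGG. MKI67 lies at chr10:128126424-128126523 on the minus strand, and its last CHR match and the CCAAT match after it share 1 base. PLK1, the polo kinase of mitotic entry, lies at chr16:23678789-23678888 on the plus strand, and CCNB2 (cyclin B2) at chr15:59105046-59105145 on the plus strand. KIF18A, a kinesin that limits chromosome movement, lies at chr11:28108157-28108256 on the minus strand, and PIF1, a DNA helicase, at chr15:64825648-64825747 on the minus strand. The rule genes CENPF, at chr1:214603095-214603194 on the plus strand, and ASPM, at chr1:197146670-197146769 on the minus strand, are shown as higher genes with CCAAT and no CHR letters in this window. For replication, MCM6, a subunit of the replicative helicase, lies at chr2:135876444-135876543 on the minus strand, and DTL, which directs the licensing factor CDT1 to degradation, at chr1:212035648-212035747 on the plus strand.
MKI67: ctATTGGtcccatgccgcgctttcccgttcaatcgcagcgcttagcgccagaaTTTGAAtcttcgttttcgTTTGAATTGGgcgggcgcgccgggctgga
PLK1: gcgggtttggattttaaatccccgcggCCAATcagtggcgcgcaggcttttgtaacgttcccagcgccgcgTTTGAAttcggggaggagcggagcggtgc
CCNB2: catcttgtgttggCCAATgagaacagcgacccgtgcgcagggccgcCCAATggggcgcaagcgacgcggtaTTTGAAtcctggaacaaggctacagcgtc
KIF18A: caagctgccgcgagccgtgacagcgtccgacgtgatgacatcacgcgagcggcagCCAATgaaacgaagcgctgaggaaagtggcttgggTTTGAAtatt
PIF1: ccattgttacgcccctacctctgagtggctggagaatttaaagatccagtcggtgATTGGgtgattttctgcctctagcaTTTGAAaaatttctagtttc
CENPF: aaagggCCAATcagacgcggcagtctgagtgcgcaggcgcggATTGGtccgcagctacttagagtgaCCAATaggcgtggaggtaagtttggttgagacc
ASPM: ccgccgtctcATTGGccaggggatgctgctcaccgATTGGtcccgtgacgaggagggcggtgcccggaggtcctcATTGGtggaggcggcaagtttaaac
MCM6: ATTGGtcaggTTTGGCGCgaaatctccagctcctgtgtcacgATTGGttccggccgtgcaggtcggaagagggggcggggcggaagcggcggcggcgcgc
DTL: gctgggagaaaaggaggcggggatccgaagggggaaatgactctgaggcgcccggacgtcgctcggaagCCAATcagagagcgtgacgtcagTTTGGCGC

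In MKI67, PLK1 and CCNB2 a CHR match sat at the same distance from the start, at positions -29 to -24 with the base before the start counted as -1. Of the 152 genes that were at least 2-fold higher in mitotic nuclei of every library (described further on), 126 matched a promoter in the table. Of these, 35 (27.78%) held the CHR letters within 100 bases, 64 (50.79%) held CCAAT and 24 (19.05%) held both. The same window held the CHR letters in 3.19% of the 7276 matched genes at 20 CPM (UMIs of a gene scaled to a fixed total for each sum) or more, and in 4.94% of all 27305 promoters. CCAAT was in 21.58% and 18.7% of those. Of the 36 matched genes of the DNA replication list, 0 held the CHR letters, 17 (47.22%) held CCAAT, and 10 (27.78%) held an E2F match, among them MCM6, DTL, PCNA, TYMS and HELLS. An E2F match was in 4 (3.175%) of the 126 higher genes and in 0.82% of all promoters. A match describes letters in a window and does not show that a factor binds there.

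The 6 libraries held 24827688 to 43876948 human UMIs, of which mitotic nuclei held 5954507 to 15692580. Mitotic nuclei were deeper than the rest, with a median of 5846 UMIs against 2696 in other human nuclei, and 21.4% of them against 5.65% were called as doublets (2 nuclei in 1 droplet) by a caller built from simulated pairs. Results that changed without those barcodes are named with the alternatives. Mitochondrial UMIs made up 0.684% and 0.751% of mitotic UMIs in the DATG libraries, against 0.173% and 0.108% in KO and 0.159% and 0.0677% in WT. The 2 DATG libraries were less alike (Pearson r = 0.868 across genes on log2 CPM of mitotic sums) than the KO pair (0.973) or the WT pair (0.968). Libraries shared 12 to 51 cell barcodes per pair, 0.1845 to 0.4468% of the smaller library of the pair. The second DATG library stood apart in mixed barcodes (neither 90% human nor 90% mouse), with 3651 of 10288 barcodes against 513 to 1095 in the other libraries. Among nuclei at least 95% human its mitotic share was 13.8%, beside 11.99% at 90%. LNCPRESS1 itself gave 1 and 0 UMIs in mitotic nuclei of KO, 0 and 2 in DATG, and 5 and 1 in WT, too few to check the labels.

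Detection of the rule genes separated the chosen nuclei from the rest by construction, and the levels show by how much. MKI67 was detected in 56.7% and 62.2% of mitotic nuclei in KO, 62.9% and 59.6% in DATG, and 64.3% and 56.4% in WT. In the other nuclei the range over the 6 libraries was 3.601 to 7.12%, and in neuron-like nuclei, which should lack it, 1.70 to 4.49%, counting neuron-like nuclei outside the mitotic set. CENPF was detected in 80.6 to 87.2% of mitotic nuclei and 8.08 to 17.8% of the others, and KIF14 in 54.2 to 61.6% and 2.15 to 3.62%. In neuron-like nuclei outside the mitotic set those shares were 5.10 to 11.99% for CENPF and 0.678 to 2.40% for KIF14, at median depths of 2321 to 4142 UMIs, against 4823 to 9215 UMIs in mitotic nuclei.

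The rule has a threshold, and 3903 nuclei with 2 rule genes lay just outside it. Just inside were 2327 nuclei with 3, which made up 30.92% of the members, followed by 1900 with 4, 1698 with 5 and 1602 with all 6. Depth increased along this series, with a median of 3640 UMIs at 2 rule genes, 4401 at 3, 5405 at 4, 6556 at 5 and 8598 at 6. CDC25C, the phosphatase that activates the mitotic kinase CDK1, averaged 41.6 CPM at 2 rule genes and 63.4 CPM at 3, so the threshold cuts a continuous range of levels.

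Mitotic nuclei made up 16.6% and 16.8% of human nuclei in the 2 KO libraries (95% exact binomial intervals 15.88 to 17.34 and 15.97 to 17.63). In DATG they made up 10.9% and 11.99% (10.36 to 11.48 and 11.18 to 12.83), and in WT 20.7% and 10.8% (19.62 to 21.77 and 10.24 to 11.34). The WT libraries lay at either end of the whole range, with 1 above both KO libraries and the other below both DATG libraries. The KO libraries both lay above the DATG libraries, the one pair of groups that did not overlap. These intervals cover counting error only.

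The mean share was 16.7 ± 0.134% in KO, 11.5 ± 0.764% in DATG and 15.7 ± 7.0% in WT (SD, n = 2 each). The log2 ratio of shares was 0.16 for KO over WT (two-sided exact permutation test, p = 1), -0.38 for DATG over WT (p = 1) and -0.55 for DATG over KO (p = 0.3333). With 2 against 2 libraries the smallest p the exact test can give is 0.3333, so no difference in share could pass. An exact test over the 3 groups gave p = 0.6, where 0.06667 is the smallest possible. The KO over WT ratio turned to -0.31 without the second WT library, and the DATG over WT ratio to 0.08 without the first.

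Depth differed between the libraries along with the share. The first WT library, with the highest share, also had the deepest mitotic nuclei, with a median of 9215 UMIs against 4823 in the second. With every nucleus thinned to 1000 UMIs, the shares were 3.97% and 3.45% in KO, 2.79% and 3.31% in DATG, and 3.87% and 2.93% in WT, so the gap between the WT libraries narrowed and their order stayed. Nuclei under 1000 UMIs were left out, which kept 9607 of 10096 and 7470 of 7945 in KO, 11307 of 12103 and 5374 of 6090 in DATG, and 4958 of 5542 and 11153 of 12254 in WT. A level that needs no call per nucleus gave the same order within WT: the 109 genes of 9 mitotic lists summed to 5332 and 4911 CPM over all human nuclei in KO, 4268 and 4757 CPM in DATG, and 5870 and 4539 CPM in WT. The 43 replication genes summed to 1997 and 1745 CPM in KO, 1576 and 1756 CPM in DATG, and 2385 and 1646 CPM in WT. In such sums a larger number of dividing cells and more RNA per cell cannot be told apart.

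**Figure D1:**
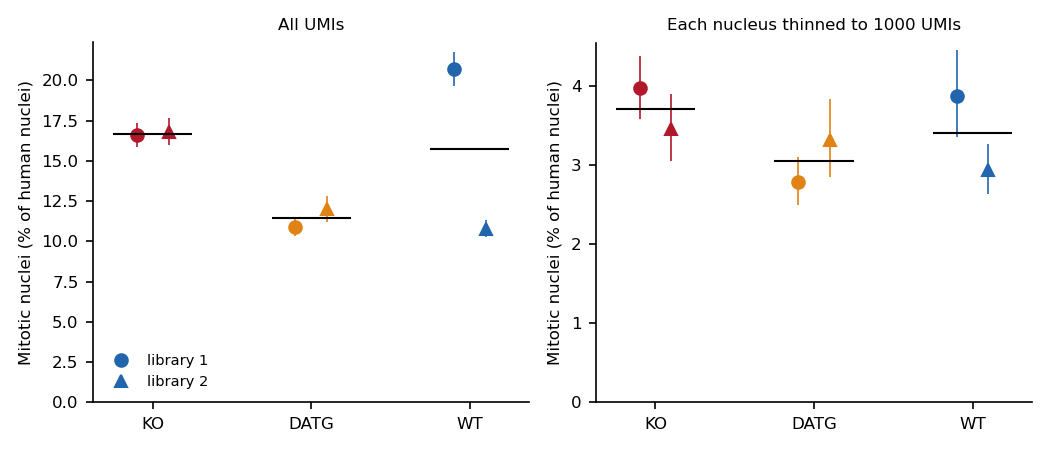
Share of human nuclei counted as mitotic (y axis, percent) in each of 2 libraries of KO, DATG and WT, with all UMIs (left) and with each nucleus thinned to 1000 UMIs (right). Points are libraries with 95% exact binomial intervals and black lines are group means; the WT libraries lie at 20.7% and 10.8% on the left, outside the span of all the others, and at 3.87% and 2.93% on the right.

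Across the transcriptome, mitotic nuclei differed from the other nuclei of their library in a small set of genes, all in one direction. Of 9251 genes with a mean of at least 20 CPM in the higher kind, 152 (1.64%) were at least 2-fold higher in mitotic nuclei in all 6 libraries and 0 were at least 2-fold lower in all 6. A ratio above 1 in every library was seen in 2265 genes (24.5%) and below 1 in 1722 genes (18.6%), and the median ratio over all genes was 1.01. The 6 rule genes are among the 152, and the other 146 had a median ratio of 4.17. Since the rule used the same nuclei, these counts describe the set and test nothing.

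Kinases and cyclins that drive entry into mitosis were higher in 12 of 13 measured members, with a median ratio of 5.74. CDK1, the kinase at the centre of mitotic entry, had 76.5 and 88.4 CPM in mitotic nuclei of KO, 97.7 and 93.7 in DATG, and 69.1 and 96.4 in WT, against 15.97 and 14.1 (KO), 14.3 and 12.1 (DATG), and 15.2 and 18.6 CPM (WT) in the other nuclei. Its lowest mitotic value lay well above its highest value elsewhere. CDC25C was 6.57 to 10.4 times higher and CCNB1 (cyclin B1) 5.21 to 7.03 times higher across the 6 libraries. BUB1, a checkpoint kinase that sits on kinetochores, was 7.09 to 10.9 times higher.

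Motors and spindle proteins followed. All 11 measured mitotic kinesins were higher in every library, with a median ratio of 6.37. KIF18A averaged 116 CPM in mitotic nuclei and 14.2 CPM in the others, KIF4A, which condenses chromosome arms and organises the central spindle, 125 and 16.2 CPM, and KIF23, the motor of the centralspindlin complex, 91.6 and 13.3 CPM. Spindle and microtubule proteins were higher in 15 of 18, with a median of 4.77, among them TPX2, which activates Aurora A on the spindle, at 5.67 to 10.6 times, and DLGAP5, which bundles kinetochore fibres, at 6.04 to 15.1 times. All 11 measured cytokinesis genes were higher, with a median of 5.89, including ECT2, which switches on the contractile ring, at 189 against 28.9 CPM and CIT, a kinase of the midbody, at 173 against 31.0 CPM.

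Genes of the chromosomes themselves were higher less uniformly. All 4 members of the chromosomal passenger complex, which corrects faulty attachments, were higher, with ratios of 6.04 for its kinase AURKB, 8.51 for CDCA8, 5.59 for BIRC5 and 5.53 for INCENP (medians of 6 libraries). Of 17 kinetochore and centromere genes 11 were higher (median 4), led outside the rule by NDC80, which binds microtubule ends, at 105 against 13.9 CPM. Condensin and cohesin regulators were higher in 11 of 14 (median 3.61), with the condensin subunits SMC4 at 246 against 68.1 CPM and NCAPG at 121 against 22.8 CPM. The spindle assembly checkpoint, 4 of 8 (median 2.39), and the anaphase-promoting complex, 3 of 12 (median 1.33), had more members close to a ratio of 1.

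Lists of earlier phases had lower median ratios than the kinesins. The median ratio of 32 measured DNA replication genes was 1.56, and 1 of them passed the 2-fold line in every library: RRM2, a ribonucleotide reductase subunit, had 199 CPM in mitotic nuclei and 52.1 CPM in the others. MCM6 averaged 28.3 against 26.3 CPM and PCNA, the sliding clamp of replication, 26.1 against 19.8 CPM. Of 20 DNA damage and Fanconi repair genes, 4 passed (POLQ, RAD51AP1, FANCD2 and BRCA2, at 2.59 to 3.84 times), with a median of 2.28, and all 20 were above 1 in all 6 libraries. FOXM1 and E2F7 were the 2 of 15 transcription factors that passed. The 33 replication-dependent histone genes did not reach 20 CPM, and their summed level was 41.3 to 103 CPM in mitotic nuclei and 24.96 to 74.98 CPM in the others.

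Markers of arrest and of cell types were also read. CDKN1C (p57, an inhibitor of cyclin-dependent kinases) averaged 46.2 against 72.5 CPM, below 1 in all 6 libraries at 0.443 to 0.770. CDKN3, a phosphatase that acts on CDK1 and CDK2 and is itself a G2 and mitosis gene, was the 1 of 7 in the list of G1 cyclins and inhibitors that was higher, at 24.9 against 5.37 CPM. The 10 measured p53 targets had a median of 1.03 with 0 higher. All 12 mesenchyme markers were below 1 in all 6 libraries (median 0.617), 6 of 10 neuron markers were (median 0.702), and 6 of 10 neural progenitor markers were above 1 in all 6 (median 1.47).

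**Figure D2:**
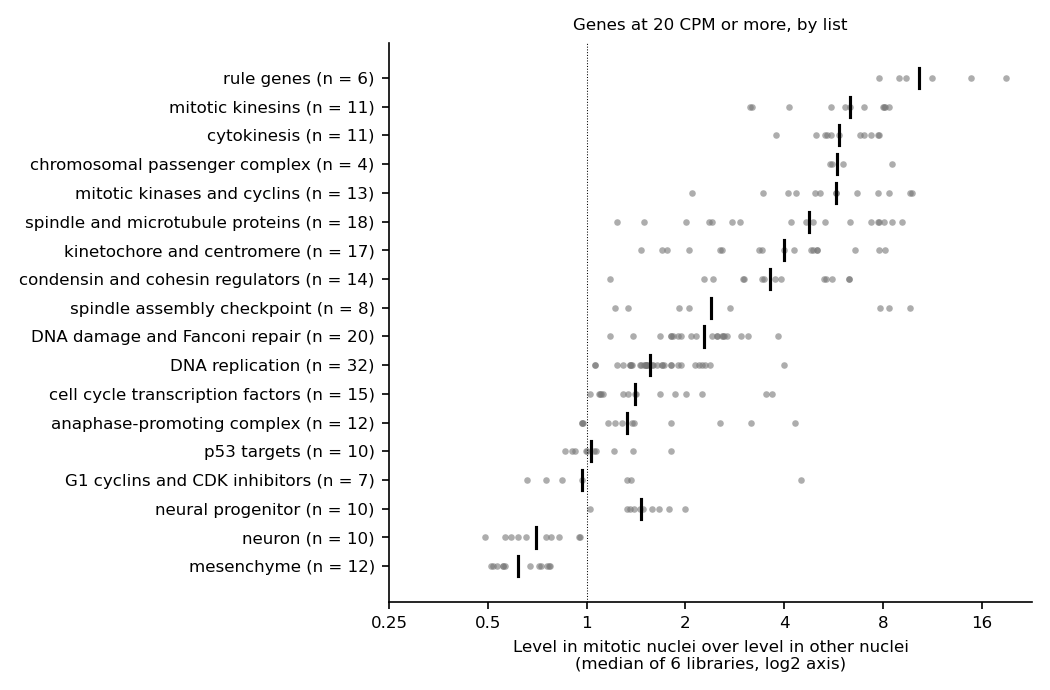
Ratio of the level in mitotic nuclei to the level in other nuclei (x axis, median of 6 libraries, log2 axis) for the genes at 20 CPM or more of the lists. Each dot is a gene, the black bar is the median of its list and n is the number of genes shown; mitotic kinesins (6.37) and cytokinesis genes (5.89) lie far right of DNA replication genes (1.56), and mesenchyme markers (0.617) lie left of 1.

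Ranked by their smallest ratio over the 6 libraries, with a mean of at least 50 CPM, the highest 20 genes were KIF14, CENPE, PIF1, ASPM, CDCA2, BUB1, TOP2A, KIF18A, GTSE1, CDC25C, DLGAP5, MKI67, KIF23, APOLD1, ARHGAP11B, NDC80, TPX2, ARHGAP11A, KIF4A and CCNB1. ARHGAP11A and ARHGAP11B are near-identical copies, so UMIs may have been split between them. Of the 152 genes, 62 were in none of the cell cycle lists used here. PIF1 led these, with 83.4 and 53.4 CPM in mitotic nuclei of KO, 61.3 and 29.9 in DATG and 56.5 and 66.0 in WT, against 5.52 and 2.27 (KO), 2.64 and 1.59 (DATG), and 5.61 and 3.06 CPM (WT) in other nuclei. APOLD1, best known from endothelial cells, averaged 259 against 33.8 CPM, and CDCA2, a targeting subunit of protein phosphatase 1 on chromosomes, 92.7 against 9.88 CPM. DEPDC1 (45.0 against 4.71 CPM) and NEIL3, a DNA glycosylase (59.8 against 9.37 CPM), also stood in that group.

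At the other end, the 10 genes whose highest ratio was lowest were MGP, GRM7, CNTN5, DLK1, ELN, COL16A1, LUM, DAB2, COL1A2 and NALCN. MGP, ELN, COL16A1, LUM and COL1A2 encode matrix proteins, GRM7 is a glutamate receptor, CNTN5 a neural adhesion protein, NALCN a sodium leak channel, DLK1 a Notch-like ligand and DAB2 an endocytic adaptor. COL1A2, a collagen I chain, had 212 and 487 CPM in mitotic nuclei of KO, 1135 and 1656 in DATG and 722 and 1019 in WT, against 413 and 956 (KO), 1671 and 2774 (DATG), and 1303 and 2041 CPM (WT) in the other nuclei. The ratio stayed between 0.499 and 0.679 while the level itself ranged from 212 to 1656 CPM in mitotic nuclei.

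Levels were also followed along the number of rule genes. The rule used that number, so an increase of genes that share its timing is built in, and the series is a description. Summed over its list, the DNA replication level relative to nuclei with no rule gene averaged 2.33 at 2 rule genes, 2.57 at 3, 2.42 at 4, 2.22 at 5 and 1.88 at 6. The cytokinesis list averaged 4.71, 6.55, 7.60, 9.003 and 10.5 over the same steps, and the mitotic kinesins 4.67, 6.75, 8.19, 10.3 and 12.3. Of 38 replication genes 27 had their highest level at 3 rule genes, 5 at 2 and 0 at 6. All 12 cytokinesis genes and 11 of 12 kinesins had theirs at 6. Nuclei just over the threshold had the highest replication gene level among the members, so the label mitotic is used here as the name of the rule and covers nuclei with S phase genes.

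MCM6 and PLK1 show the 2 patterns gene by gene. MCM6 averaged 22.7, 29.7, 37.2, 35.02, 30.9, 29.0 and 21.8 CPM at 0 to 6 rule genes, and DTL 26.1, 52.8, 93.2, 99.0, 82.3, 74.5 and 56.3 CPM. PLK1 averaged 4.37, 5.45, 8.01, 9.85, 19.02, 27.1 and 36.7 CPM over the same series, and KIF18A 8.88, 16.7, 36.5, 59.9, 83.7, 130 and 166 CPM. MCM6 peaked at 2 rule genes and DTL at 3, and both then declined, while the mitotic pair increased at every step.

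The comparison of nuclei with 6 rule genes against those with 3 was made in each library. Of 9123 genes at 20 CPM or more, 588 (6.45%) were higher at 6 in all 6 libraries and 863 (9.46%) were lower, with a median ratio of 0.977. Mitotic kinases and cyclins were higher in 13 of 15, spindle proteins in 16 of 19, kinesins in 11 of 12 and cytokinesis genes in 11 of 12. The ratio of mean levels was 3.73 for PLK1, 3.62 for AURKA, the spindle pole kinase, and 3.30 for CENPA, the centromere histone. DNA replication genes were lower in 29 of 37 and higher in 0, with a median of 0.682; the licensing and fork genes CDC45, MCM10, HELLS and DTL had ratios of 0.481, 0.565, 0.611 and 0.569. DNA damage and Fanconi genes were lower in 14 of 20, with a median of 0.790. Depth differed along with the number of rule genes, and its part in these ratios was not tested.

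**Figure D3:**
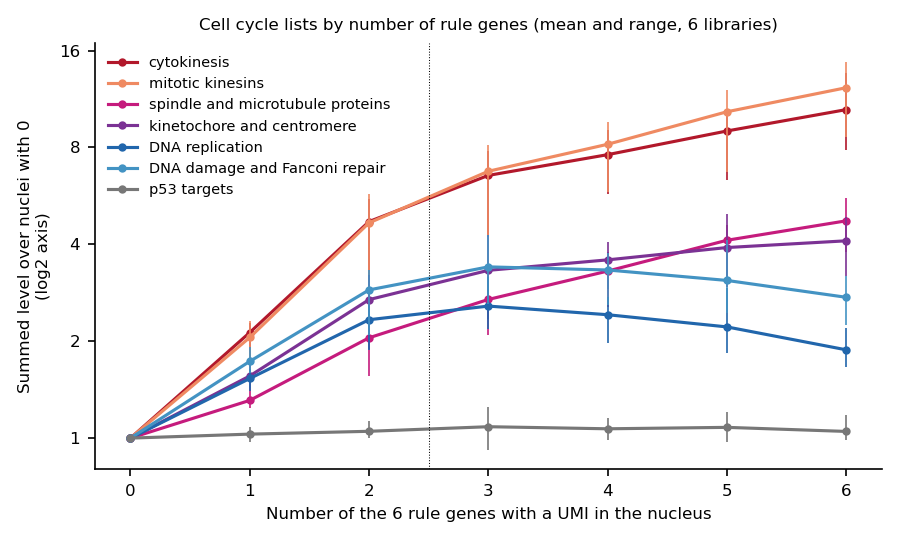
Summed level of gene lists relative to nuclei with 0 rule genes (y axis, log2 axis) by the number of rule genes with a UMI (x axis); points are means and vertical bars the range over 6 libraries, and the dotted line is the threshold of the rule. DNA replication peaks at 2.57 with 3 rule genes and is 1.88 with 6, while cytokinesis reaches 10.5 and mitotic kinesins 12.3 with 6.

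Cell classes were rebuilt by clustering without cell cycle genes and named from marker lists, so a name stands for leading genes and not for an authors' annotation; 17 classes were named and 26.77% of mitotic nuclei fell in 4 unnamed clusters. One of those, with 2.47 times the median depth of its libraries, was made up to 62.48% of doublet calls and to 35.96% of mitotic nuclei. Neural progenitor-like nuclei held the most mitotic nuclei of a named class, 1432 of 5795. Their mitotic share was 24.4% and 29.0% in KO, 19.5% and 21.6% in DATG and 30.8% and 20.02% in WT. In mesenchyme-like nuclei (1384 of 15803) it was 9.94% and 10.5% in KO, 8.54% and 7.86% in DATG and 12.9% and 6.24% in WT. In neuron-like nuclei it was 4.12% and 3.91% in KO, 2.69% and 0.676% in DATG and 4.26% and 3.27% in WT. The ranges of the 3 classes over the 6 libraries did not overlap.

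Over the 6 libraries the mitotic share of neural progenitor-like nuclei was 1.83 times that of all other nuclei (log2 0.87 ± 0.146, SD, n = 6, above in 6 of 6). In an exact sign-flip permutation test this gave p = 0.03125, the smallest 6 libraries can give, and 0.09375 after Benjamini-Hochberg adjustment over the 9 classes with at least 20 nuclei in every library, which does not pass 0.05. Mesenchyme-like nuclei (log2 -0.83, above in 0 of 6) and neuron-like nuclei (log2 -2.47, above in 0 of 6) gave the same p-values in that exact test. After thinning to 1000 UMIs the shares were 6.36 to 8.92% in neural progenitor-like, 2.10 to 3.63% in mesenchyme-like and 0 to 0.821% in neuron-like nuclei. The log2 ratio to all other nuclei was then 1.32 for neural progenitor-like (above in 6 of 6) and -2.81 for neuron-like nuclei (above in 0 of 6), but -0.31 for mesenchyme-like nuclei, which lay above the others in 1 of 6 libraries. The summed mitotic lists need no call per nucleus but include the rule genes. Their median over libraries was 7859 CPM in neural progenitor-like, 4701 CPM in mesenchyme-like and 2137 CPM in neuron-like nuclei. Pluripotent-like nuclei had a mitotic share of 62.8% over all libraries, which was 4.38% after thinning, with 2.73 times the median depth of their libraries. Their summed mitotic lists had the highest median of any class, 8067 CPM over the 4 libraries with at least 20 such nuclei. The range was 6466 to 9242 CPM, which overlapped the 7475 to 8721 CPM of neural progenitor-like nuclei.

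**Figure D4:**
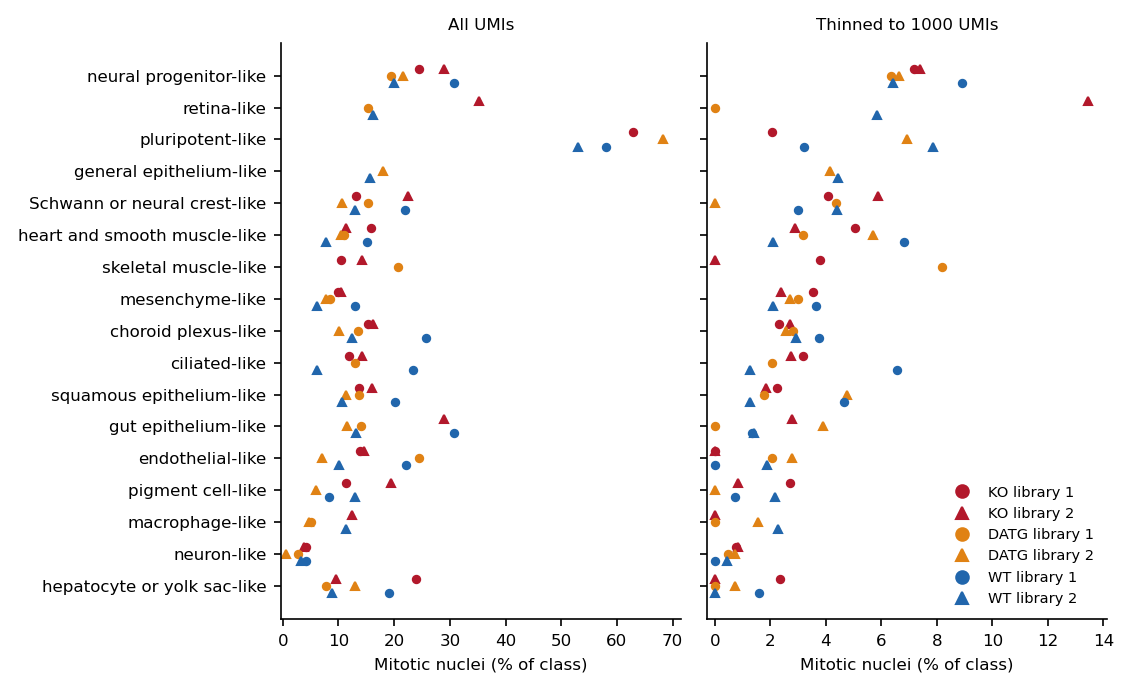
Share of each class counted as mitotic (x axis, percent) in every library with at least 20 nuclei of that class, with all UMIs (left) and thinned to 1000 UMIs (right); colours are genotypes and symbols libraries, and classes are ordered by their thinned share. Neural progenitor-like nuclei lie at 19.5 to 30.8% on the left and 6.36 to 8.92% on the right, and neuron-like nuclei at 0.676 to 4.26% and 0 to 0.821%.

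The same ratios were taken within the 2 largest named classes of mitotic nuclei and set against the 152 genes of all nuclei. Within mesenchyme-like nuclei 256 of 8800 genes (2.91%) were at least 2-fold higher in mitotic nuclei in all 6 libraries, and 151 of them were among the 152 of all nuclei, which is 58.98% of the mesenchyme set and 99.34% of the general one. Within neural progenitor-like nuclei 122 of 8972 (1.36%) were higher and 107 were shared, 87.7% and 70.39% of the 2 sets. The classes parted in replication genes: 10 of 34 were higher in mitotic mesenchyme-like nuclei, with a median of 1.99, and 0 of 37 in mitotic neural progenitor-like nuclei, with a median of 0.997. MCM6 averaged 32.2 CPM in mitotic and 53.5 CPM in other neural progenitor-like nuclei, lower in all 6 libraries (0.490 to 0.718). KIF14, a rule gene, was 24.8 to 37.7 times higher in mitotic than in other mesenchyme-like nuclei and 11.4 to 19.3 times in neural progenitor-like nuclei. The difference between the classes was not tested.

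The class mix of mitotic nuclei varied between libraries. Neural progenitor-like nuclei made up 28.7 ± 1.28% of mitotic nuclei in KO, 10.5 ± 2.02% in DATG and 14.3 ± 2.92% in WT (SD, n = 2 each). Mesenchyme-like nuclei made up 14.3 ± 1.13% in KO, 22.1 ± 8.19% in DATG and 18.9 ± 0.853% in WT. Gut epithelium-like nuclei made up 0.884 ± 1.08% in KO, 7.45 ± 9.03% in DATG and 11.7 ± 1.12% in WT. The mix of all human nuclei varied too. Neural progenitor-like nuclei made up 18.93% and 17.12% of these in KO, 6.66% and 5.025% in DATG and 10.97% and 6.561% in WT. Mesenchyme-like nuclei made up 22.61% and 24.29% in KO, 35.59% and 24.88% in DATG and 29.39% and 33.77% in WT. For gut epithelium-like nuclei the shares were 0.1486% and 0.9566%, 0.818% and 14.45%, and 8.409% and 8.895%. With 2 libraries a group no exact test of these shares can pass, and the DATG spread for gut and mesenchyme was the widest of the 3 groups. The share was also weighted alike in every library over the 9 classes with at least 20 nuclei in each, with all remaining nuclei as 1 set. Gut epithelium-like nuclei and the unnamed clusters lay in that set, so the mix within it was not evened out. The weighted mitotic share was 17.6% and 16.5% in KO, 12.4% and 10.8% in DATG and 18.8% and 10.7% in WT. As without the weights, both KO libraries lay above both DATG libraries and the WT libraries lay at either end. The order of the libraries within KO and within DATG was reversed by the weights.

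Within mitotic nuclei, 22231 genes were tested between genotypes on UMIs summed per library, with edgeR's quasi-likelihood test and Benjamini-Hochberg adjustment in a fit of all 6 libraries. No gene passed an adjusted p of 0.05 in KO over WT, in DATG over WT or in DATG over KO, 0 genes (0%) in each direction. At an unadjusted p under 0.05 there were 872, 950 and 1805 genes in the 3 comparisons. DESeq2 called 83, 87 and 123 genes. The biological coefficient of variation was 34.44% in that fit and 21.27% with KO and WT alone, while the fits of DATG with WT alone and with KO alone gave 40.33% and 39.12%.

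The levels of the rule genes, which chose the nuclei, are given as a description. MKI67 had 125 and 132 CPM in KO, 176 and 168 in DATG and 102 and 129 in WT, on the normalised scale of the fit. Both DATG values lay above the others. The 6 rule genes had log2 fold changes of 0.05 to 0.30 for KO over WT (median 0.10) and 0.21 to 0.58 for DATG over WT (median 0.36). Medians of the mitotic lists lay between -0.02 and 0.08 for KO over WT and between 0.20 and 0.31 for DATG over WT, beside 0.01 and 0.02 over all genes tested. The DNA replication list had a median of -0.17 for KO over WT and 0.06 for DATG over WT, and the p53 targets -0.11 and 0.26. The 19 replication-dependent histone genes tested lay further out, with a median of 0.18 for KO over WT, -0.66 for DATG over WT (4 above 0) and -1.04 for DATG over KO (3 above 0), and 0 called in each. The comparisons share the WT libraries.

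**Figure D5:**
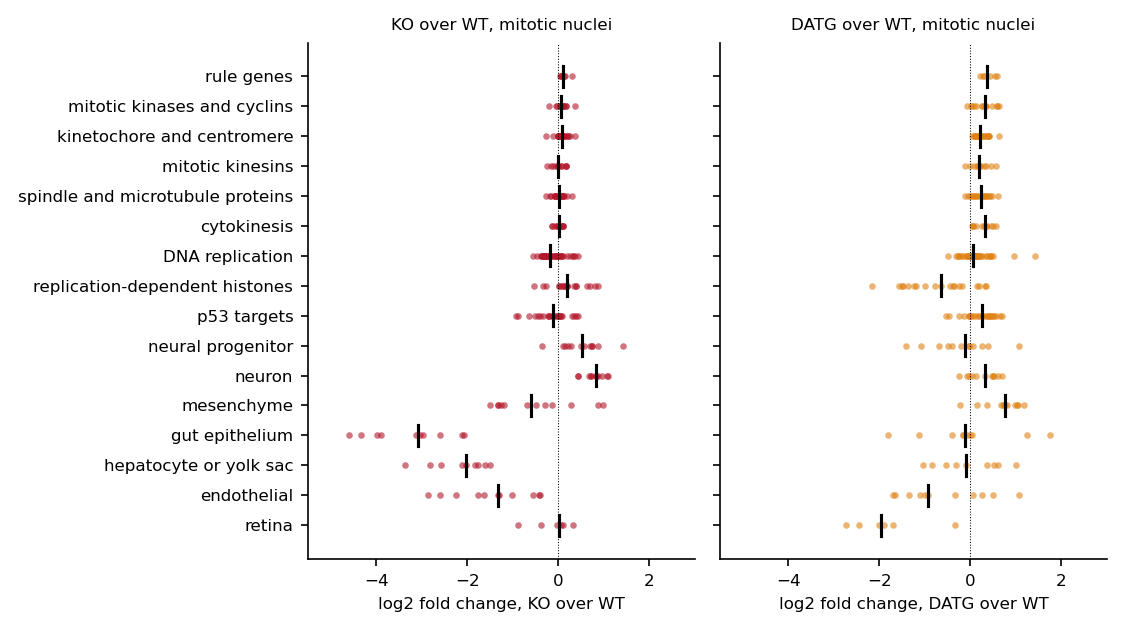
Log2 fold change within mitotic nuclei of KO over WT (left) and DATG over WT (right) for the genes of cell cycle lists (upper rows) and cell type marker lists (lower rows). Dots are genes and black bars list medians; rule genes have medians of 0.10 and 0.36 and replication-dependent histones of 0.18 and -0.66, whereas gut epithelium markers have a median of -3.07 in KO over WT and retina markers -1.95 in DATG over WT, and 0 of the genes shown outside the rule passed the test.

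Larger differences lay in marker genes of tissues. The 10 gut epithelium markers had a median log2 fold change of -3.07 for KO over WT, the 9 hepatocyte or yolk sac markers -2.02, the 11 endothelial markers -1.32 and the 11 neuron markers 0.82, with 0 called in each. Fitted with the 4 KO and WT libraries alone, 59 of 22210 genes (0.266%) were higher in KO and 296 (1.33%) lower at an edgeR adjusted p under 0.05. In that fit 8 of 10 gut epithelium markers, 4 of 11 endothelial and 4 of 9 general epithelium markers were lower. Outside the rule, 0 genes of the mitotic lists, the replication list or the p53 list were called. The share of gut epithelium-like nuclei among mitotic nuclei moved alongside (0.884% in KO and 11.7% in WT), and its part in these calls was not tested.

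For fitted log2 values, here and below, ± gives a standard error worked out from the test statistic and not an SD over libraries. Among the genes lower in KO in the 4-library fit was HNF4A, a transcription factor of liver and gut. It had 3.76 and 7.86 CPM in KO against 55.6 and 39.9 CPM in WT (log2 -3.04 ± 0.365, edgeR adjusted p = 0.0184). GATA4, a factor of endoderm and heart, had 10.3 and 4.63 CPM against 74.2 and 62.8 CPM (-3.19 ± 0.357, edgeR adjusted p = 0.0184), and NR5A2, a nuclear receptor of liver, pancreas and gut, 10.2 and 17.3 CPM against 141 and 117 CPM (-3.24 ± 0.280, edgeR adjusted p = 0.0170). The KO libraries lay below both WT libraries for each of these. SI (sucrase-isomaltase of the intestinal brush border), MALRD1 and the imprinted long noncoding RNAs MEG3 and MEG8 were also lower, at log2 -3.997, -2.59, -3.599 and -3.36. MEG8 was low in DATG as well, with 6.64 and 9.35 CPM in mitotic nuclei against 112 and 64.2 CPM in WT. In the other nuclei MEG8 had 4.90 and 12.2 CPM in KO, 7.95 and 12.3 in DATG and 71.4 and 42.8 in WT. Levels in other nuclei are not given here for the other genes named from the 4-library fit. In the fit of all 6 libraries the DATG over WT log2 fold change of MEG8 was -3.47 and did not pass (edgeR adjusted p = 0.719). Within mitotic mesenchyme-like nuclei of the 4 KO and WT libraries alone, NR5A2 had a log2 fold change of -0.49 (edgeR adjusted p = 0.871). GATA4 (-4.30, edgeR adjusted p = 0.0322) and MEG8 (-3.66, edgeR adjusted p = 0.0322) were called in that class fit too. With all 6 libraries fitted, 0 genes were called for KO over WT within mitotic mesenchyme-like nuclei.

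Of the neuron markers 1 of 11 was called higher in KO in that fit, and of the neural progenitor markers 0 of 12. Among the genes higher in KO, CSMD1, a complement regulator of neurons, had 619 and 554 CPM in KO against 228 and 182 CPM in WT (log2 1.52 ± 0.194, edgeR adjusted p = 0.0203). NTRK2, the BDNF receptor, had 200 and 153 CPM against 56.5 and 55.4 CPM (1.66 ± 0.197, edgeR adjusted p = 0.0184). HOXA3, a homeobox factor of the hindbrain and neck, had 64.4 and 42.2 CPM against 12.5 and 15.6 CPM (1.93 ± 0.266, edgeR adjusted p = 0.0255). Both KO libraries lay above both WT libraries for each. HOXD3, the microRNA host genes MIR9-3HG and MIR9-1HG, NECTIN3-AS1 and LHFPL3 were higher as well, by log2 2.52, 1.74, 1.61, 1.59 and 1.48. Mitotic mesenchyme-like nuclei were also fitted with the KO and WT libraries alone. There CSMD1 (2.98, edgeR adjusted p = 0.00490), NTRK2 (1.82, edgeR adjusted p = 0.0302) and HOXA3 (2.04, edgeR adjusted p = 0.0482) were called. In mitotic neural progenitor-like nuclei of the same libraries LHFPL3 was (2.14, edgeR adjusted p = 0.0203). With all 6 libraries fitted, 0 genes were called for KO over WT within either class.

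In the fit of all 6 libraries the genes named by the smallest unadjusted p did not pass. For KO over WT these were HOTAIRM1, HOXB3, LIMCH1 and CNKSR2 on the higher side, at log2 0.77 to 1.45, and CDH18, ZNF431, DAB2 and NRK on the lower side, at -1.60 to -1.09. For DATG over WT, H19, an imprinted long noncoding RNA, came nearest: it had 4 and 3 UMIs in mitotic nuclei of DATG, beside 246 and 412 in KO, against 1103 and 720 UMIs in WT (log2 -7.15 ± 0.449 for DATG over WT, edgeR adjusted p = 0.0637). Its fitted fold change rests on those few UMIs. The other nuclei showed the same order, with 35 and 14 H19 UMIs in DATG against 1815 and 4800 in WT. The mitochondrial genes MT-ATP6, MT-CO2 and MT-ND3 had log2 fold changes of 3.13, 2.72 and 4.30 for DATG over WT, beside the mitochondrial shares given above, whose part was not tested, and none passed (edgeR adjusted p = 0.711 each). For DATG over KO, NR3C2, ZNF678, EEF2 and EEF1A1 on the higher side and TYR, RHEX, JAKMIP2-AS1 and ADAMTS18 on the lower side were named and did not pass.

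Whether a genotype effect differed between mitotic nuclei and the other nuclei of the same library was tested in 1 fit of 12 sums with the library as a block. Of 25056 genes, 0 (0%) passed for KO over WT, 3 (0.012%) for DATG over WT and 0 (0%) for DATG over KO with edgeR's quasi-likelihood test, with 984, 1941 and 1310 genes at an unadjusted p under 0.05 in the 3 comparisons. DESeq2 called 3, 100 and 4. The 3 genes were CDH18, a neuronal cadherin, CTNNA2, the neural alpha-catenin, and MT-CO3, a mitochondrial subunit of cytochrome c oxidase. Neuron markers lay on the same side as the first 2: for DATG over WT 0 of 11 had a difference above 0 (median -0.49, 6 at an unadjusted p under 0.05), and for KO over WT 0 of 11 (median -0.45), with 0 called and beside medians of -0.02 and -0.03 over all genes tested. Their part in these calls was not tested.

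CDH18 had 85.5 and 92.0 CPM in mitotic nuclei of DATG, against 227 and 218 CPM in WT, and 159 and 212 CPM in the other nuclei of DATG, against 195 and 184 CPM in WT. The groups were apart in mitotic nuclei and overlapped in the others, and the effect in mitotic nuclei minus that in other nuclei was -1.28 ± 0.126 on the log2 scale (edgeR adjusted p = 0.0244). KO showed 72.6 and 102 CPM in mitotic and 138 and 169 CPM in other nuclei (difference for KO over WT -1.07 ± 0.124, edgeR adjusted p = 0.119). Within mitotic mesenchyme-like nuclei alone the CDH18 fold change was -0.78 for DATG over WT and 0.01 for KO over WT, where it had been -1.30 and -1.31 in all mitotic nuclei. CTNNA2 had 614 and 216 CPM in mitotic nuclei of DATG against 702 and 726 CPM in WT, and 862 and 333 CPM in other nuclei of DATG against 534 and 554 CPM in WT (difference -0.95 ± 0.106, edgeR adjusted p = 0.0257). MT-CO3 had 1978 and 1821 CPM in mitotic nuclei of DATG against 429 and 169 CPM in WT, and 1180 and 1090 CPM in other nuclei of DATG against 465 and 180 CPM in WT (difference 0.85 ± 0.0924, edgeR adjusted p = 0.0257). With doublet calls left out, 0 genes passed for DATG over WT. Without either KO library, or without the first WT library, 0 passed, and without the second WT library 2, while without the first DATG library 770 passed and without the second 39.

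With 3 calls in all, the cell cycle lists had 0 called genes in each of the 3 differences. The rule chose the nuclei by genes of this kind, so the list values are a description and test nothing. For DATG over WT the kinetochore list had 21 of 21 genes above 0 (median 0.36) and the DNA replication list 42 of 43 (median 0.24). Over all genes tested, 11685 of 25056 were above 0 (median -0.02). For DATG over KO the replication list had 43 of 43 above 0 (median 0.30), beside 12540 of 25056 over all genes tested (median 0.00). For KO over WT the replication list had 15 of 43 above 0 (median -0.06), beside 11276 of 25056 over all genes tested. H19, MEG3 and the gut markers were not among the 3 genes called, which does not show that their effects were alike in both kinds of nuclei. For DATG over WT, marker lists of tissues moved at least as far as the cell cycle lists, in both directions. Above 0 were 10 of 10 gut epithelium (median 0.59), 9 of 9 general epithelium (0.63) and 8 of 8 pluripotent markers (1.06). The skeletal muscle markers had 2 of 11 above 0 (median -0.49).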

How the data were processed

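The authors deposited UMI counts per gene and barcode for each of 6 libraries, made with Cell Ranger 8.0.1. The submitters' processing notes name GRCh38 and GRCm38, while the mouse features in the matrices carry the prefix GRCm39. Further settings of Cell Ranger were not given in the sources used here. Counts were used as deposited. Human nuclei and mitotic nuclei were selected as described at the start of the results, and counts were summed per library over mitotic nuclei and over the other human nuclei, so that the library is the replicate. Levels are CPM of these sums, since 3′ UMI counts carry no length; they are compared within a gene. Mitotic nuclei had a median of 5846 UMIs and their sums held 5954507 to 15692580 UMIs per library; intervals cover counting error only.

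Genotypes were compared with edgeR 4.0.16 (quasi-likelihood test, robust, TMM, filterByExpr, limma 3.58.1) in R 4.3.3, with Benjamini-Hochberg adjustment over all genes tested and a threshold of 0.05. A second fit held mitotic and other sums with the library as a block, and tested the difference of the genotype effect. DESeq2 1.42.0 was an alternative, along with other size factors, filters, rules, depths, class mixes and left-out libraries. Shares were compared by exact permutation tests. Nuclei were clustered in Python 3.11.15 with scanpy 1.11.5, scikit-learn 1.9.0 and leidenalg 0.10.2 (2000 variable genes without cell cycle and mitochondrial genes, 30 components, 20 neighbours, resolution 1), and a cluster was named from marker lists or left unnamed. Doublets were called by a nearest-neighbour score against simulated pairs, at 0.8% per 1000 nuclei, and were kept in the main results. Thinning drew 1000 UMIs per nucleus. Promoters were taken from the RefSeq table for GRCh38.p14, using the first listed start of a symbol.

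The members, the gene lists and the marker lists were chosen with earlier results of these data known. Named genes followed a rule. For mitotic against other nuclei they are the 20 with the largest smallest ratio over 6 libraries and the 10 with the lowest largest ratio, at 50 CPM or more. Per genotype comparison they are up to 8 per direction among called genes at 20 CPM or more whose libraries did not overlap, filled to 4 by unadjusted p where fewer passed. In each cell cycle list they are the 4 members with the largest ratio and, per genotype comparison, the 3 with the smallest unadjusted p; rule genes, LNCPRESS1 and class markers may be named too. Other genes, such as MCM6, DTL, PCNA, CDKN1C, DEPDC1 and H19 in other nuclei, were chosen after their values were seen. 1 gene that the rule names is not reported here. Mouse nuclei were not used in the comparisons.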

Additional observations from a re-analysis of the deposited data

Results flagged for a closer look

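For 3 genes the DATG over WT effect differed between mitotic nuclei and the other nuclei of the same libraries by a test of that difference (edgeR, library block). CDH18 differed by -1.28 on the log2 scale, CTNNA2 by -0.95 and MT-CO3 by 0.85. For CDH18 the fold change in mitotic mesenchyme-like nuclei alone was -0.78 for DATG over WT. All 3 were lost with doublet calls left out. Mitochondrial genes moved with the DATG libraries in both kinds of nuclei, at 0.684% and 0.751% of mitotic UMIs in DATG against 0.159% and 0.0677% in WT, and 0.423% and 0.450% of the UMIs of other nuclei in DATG against 0.176% and 0.0698% in WT; its part in the MT-CO3 difference was not tested.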

How the results depend on the processing

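Among the main results, 178 alternative values kept the direction and side of the threshold (or stayed within 1.5 times a count), 38 moved and 16 reversed; among named genes 562 stayed, 109 became significant, 17 lost significance and 8 reversed. The cause of each change was not tested unless a smaller set of samples or genes is named.

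The log2 ratio of mitotic shares for KO over WT ranged from -0.3087 (without the second WT library) to 0.6311 with 1 library left out, DATG over WT from -0.8548 to 0.08494 (without the first WT library), and DATG over KO from -0.6143 to -0.478. Of 152 genes at least 2-fold higher, the count was 37 against nuclei with 2 rule genes, 90 at 50 CPM and 256 within mesenchyme-like nuclei; 1 gene was lower with doublet calls left out, and 0 to 2 with a library left out (2 without the second WT library). For class shares (log2), choroid plexus-like nuclei turned to -0.1638 after thinning and -0.01559 at 4 or more rule genes. Endothelial-like nuclei turned to -0.1436 without doublets and -1.009 after thinning (-0.1796 to 0.1961 with a library left out). Heart and smooth muscle-like nuclei turned to 0.2998 after thinning, hepatocyte or yolk sac-like nuclei to 0.02988 without doublets (-0.2439 to 0.002105 left out), and squamous-like nuclei to 0.06303 without doublets (-0.07218 to 0.05186 left out).

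Genes called between genotypes in mitotic nuclei (KO over WT, DATG over WT, DATG over KO) were 83, 87 and 123 with DESeq2, and 1 and 1 in the last 2 with no filter on low counts. Fitted on 4 libraries alone, KO over WT gave 355, then 111 without doublet calls, 62 in mesenchyme-like and 5 in neural progenitor-like nuclei; DATG over WT gave 1 in mesenchyme-like nuclei in the fit of 6. With a library left out the counts were 0 to 456, 0 to 2250 and 0 to 5361, the highest each time without the first DATG library, where the lone library is assumed to vary like the others. For the difference between kinds of nuclei they were 8, 190 and 45 with no filter, 3, 100 and 4 with DESeq2, and 0 to 21, 0 to 770 and 0 to 791 with a library left out; DATG over WT gave 1 at 4 or more rule genes and 0 without doublets. Named genes reversed in mesenchyme-like nuclei alone: HOXB3 (KO over WT) to -0.06268 (-0.06534 in 4 libraries), CDH18 (KO over WT) to 0.01307 (0.01463) and ADAMTS18 (DATG over KO) to 0.09987 (0.108). In neural progenitor-like nuclei NR3C2 turned to -0.0175 and TYR to 0.04048 (4 libraries).

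Same-numbered libraries did not deviate together (correlations -0.0619, -0.2 and 0.175). With so few libraries a group these values cannot decide whether the numbers mark pairs. Among mouse nuclei the first library of each group had the higher mitotic share and the fewer nuclei (values under other observations). With the replicate block the share ratios were 0.1612, -0.3849 and -0.5461 and 0 genes were called in each comparison (830, 808 and 1465 at an unadjusted p under 0.05). With the numbers of DATG and WT crossed, chosen after seeing the data, 0 were called. Settings within neural progenitor-like nuclei, the 4-library settings by class or without doublets, and the share with doublets out and thinned were also chosen after seeing the data.

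With 2 libraries a group the exact test of a share cannot go below p = 0.3333, and mitotic shares were lower in every library after thinning to 1000 UMIs.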

Other observations

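By the same rule on the mouse genes of that name, mitotic nuclei were 16 of 191 and 11 of 324 mouse nuclei in KO, 11 of 87 and 29 of 547 in DATG, and 11 of 101 and 6 of 139 in WT. The shares were 8.38% and 3.40% in KO (95% exact binomial intervals 4.864 to 13.25 and 1.707 to 5.993), 12.6% and 5.30% in DATG (6.484 to 21.5 and 3.579 to 7.526), and 10.9% and 4.32% in WT (5.564 to 18.65 and 1.6 to 9.158). The groups overlapped.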
